A study of Mus musculus with 2 samples.

Results

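The genes described here are 8 genes known from natural killer (NK) cells, namely Ncr1, Klrb1c, Klre1, Klra4, Klra8, Klrk1, Klrd1 and Eomes, taken by symbol from the 19465 features that both spatial matrices share. All 8 were found once in each matrix and all 8 had counts in both, so none was lost to a filter. The spatial data are 2 libraries of mouse pancreatic tumors, 1 with the label KPC-shZEB1 and 1 with the label KPC-shV. KPC is a mouse pancreatic cancer line, and the cells had been placed in the pancreas of mice as an orthotopic allograft. KPC-shZEB1 cells carry a short hairpin RNA against Zeb1 and KPC-shV cells its control vector. The protocol in the labels names 2 tumors per group, and which tumor each library covers is not stated. Host strain, age and sex are not in the labels. The methods of the study list several strains, among them the immunodeficient NSG mouse, which has no NK cells, without assigning these sections to a strain. The paper states, however, that the spatial data came from the tumors that gave its single-cell data. It reports that experiment as one in immunocompetent mice. Gemcitabine is not in the labels either, but the paper states that the mice with those tumors were treated with it.

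NK cells are innate lymphocytes that kill target cells without a rearranged antigen receptor, and they weigh signals from activating and inhibiting receptors on their surface. In the mouse most of these receptors are lectin-like proteins encoded side by side in the NK gene complex, and their make-up differs between inbred strains. Ncr1 encodes NKp46, Klrb1c encodes NK1.1, Klra4 and Klra8 encode the Ly49 receptors Ly49D and Ly49H, and Klre1 encodes a receptor chain that pairs with Klri1 or Klri2. These 5 are called NK-restricted receptors below. This is a name for the group only, since spots do not show which cells carried the RNA. Klrk1 encodes NKG2D, Klrd1 encodes CD94, the partner of NKG2 chains, and Eomes encodes a T-box transcription factor of NK cells. These 3 are also known from CD8+ T cells and are called shared genes below.

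On GRCm38, 6 of the 8 genes lie in the NK gene complex on chromosome 6. From the centromeric end these are Klrb1c (ENSMUSG00000030325, chr6:128778485-128789215, minus strand), Klre1 (ENSMUSG00000050241, chr6:129577905-129585827, plus strand) and Klrd1 (ENSMUSG00000030165, chr6:129591782-129598775, plus strand), followed by Klrk1 (ENSMUSG00000030149, chr6:129610323-129623864, minus strand), Klra4 (ENSMUSG00000079852, chr6:130043731-130067271, minus strand) and Klra8 (ENSMUSG00000089727, chr6:130115226-130129898, minus strand). Ncr1 (ENSMUSG00000062524, chr7:4337724-4345164, plus strand) and Eomes (ENSMUSG00000032446, chr9:118478212-118486132, plus strand) lie elsewhere.

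The Ly49 genes are close copies of each other, and the assay reads a gene through probes that hybridize to about 50 bases of its transcript. The stretches printed here show how far such a window can separate Klra4 and Klra8, which differed in the libraries, from their nearest relatives. They are coding sequence of GRCm38, written 5′ to 3′ on the minus strand of chromosome 6, and capitals mark bases that differ from the first sequence of each set. The probe sequences themselves were not used here, so whether a probe falls on these bases was not tested. The first set is a window of Klra4 in exon 6 of 7, which Klra1 (Ly49A) carries without a mismatch and Klra8 carries with 5 mismatches.
Klra4, chr6:130052979-130053028: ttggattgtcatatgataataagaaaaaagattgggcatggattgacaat
Klra1, chr6:130372835-130372884: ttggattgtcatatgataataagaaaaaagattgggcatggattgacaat
Klra8, chr6:130118977-130119026: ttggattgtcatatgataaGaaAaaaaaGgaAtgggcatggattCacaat

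The second set is a window of Klra8 in exon 4 of 8, which Klra9 (Ly49I) carries without a mismatch and Klra4 with 9 mismatches.
Klra8, chr6:130125142-130125191: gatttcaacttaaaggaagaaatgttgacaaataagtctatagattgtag
Klra9, chr6:130188722-130188771: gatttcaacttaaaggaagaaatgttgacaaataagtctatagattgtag
Klra4, chr6:130062099-130062148: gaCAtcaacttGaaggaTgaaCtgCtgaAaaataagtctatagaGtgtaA

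Over the 740 windows of 50 bases in the Klra4 coding sequence, 51 were identical in Klra1 and 425 (57.4%) had at most 5 mismatches to it. Klra7 was within 5 mismatches in 200 windows (27.0%), whereas Klra8 was within 5 mismatches in 31 (4.19%). Of the 749 windows of Klra8, 73 were identical in Klra9 and 554 (74.0%) were within 5 mismatches of it. Of the 764 windows of Klrb1c, 75 were identical in Klrb1a and 513 (67.1%) were within 5 mismatches of it. Klre1, Klrk1 and Klrd1 had no window within 5 mismatches of any of the 21 receptor genes compared. The counts of Klra4, Klra8 and Klrb1c are therefore uncertain as counts of those genes alone, and those of Klre1, Klrk1 and Klrd1 are not subject to this limit among the genes compared. Aligned end to end, Klra4 and Klra8 matched in 632 of 807 columns of coding sequence (78.3%) and in 259 of 301 columns of promoter (86.0%, 250 bases before to 50 after the start in RefSeq, GRCm38.p6). The letters TCACAC, the core that T-box factors such as Eomes are known to bind, were searched on both strands of the promoters of the 7 members with an entry. They were found in both entries of Ncr1 and both of Klre1 and in no entry of the other 5, against 4760 of the 32851 promoters of the table (14.5%).

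The library labelled KPC-shZEB1 held 140493626 unique molecular identifiers (UMIs) in 2220 spots and the library labelled KPC-shV 172059528 UMIs in 3552 spots, with medians of 59957.5 and 52544.5 UMIs per spot. Each spot reads a patch of tissue in which cells of several types may lie together, so no value here is a count of NK cells. Of the 4054 spot barcodes, 1718 occurred in both libraries, since barcodes are positions of the slide design. Acinar-rich spots, in which digestive enzyme genes of normal pancreas took over 20% of the UMIs, were 34.2% and 7.07% of the spots, in the same order. Their UMIs count toward the total, and the median log2 ratio of all genes was -0.48 over all spots and -0.01 outside acinar-rich ones, so both scopes are given. Zeb1, the targeted gene, stood at 10.8 and 12.4 CPM over all spots (log2 ratio -0.20, interval -0.30 to -0.11). Outside acinar-rich spots it stood at 15.6 and 12.7 CPM (0.30, 0.20 to 0.40), the opposite direction. Spots can pool host cells with the injected cells that carry the hairpin. These values therefore do not read Zeb1 in the KPC cells alone. The paper measured the knockdown in KPC cells and stained tumors for Zeb1. Groups are named by their labels throughout.

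The 8 genes together gave 2096 UMIs in the KPC-shZEB1-labelled library and 2056 in the KPC-shV-labelled library. A level is the UMI count of a gene divided by the total UMI count, in UMIs per 1000000 (CPM), and the ratio is KPC-shZEB1 over KPC-shV on the log2 scale. Each label has 1 library, so the comparison has no replicates and was not tested, and the 95% intervals cover counting error only. A lower level can come from fewer cells of a type or from less RNA per cell, which cannot be told apart.

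The NK genes did not move together. Over all spots Klre1, Klrk1 and Klrd1 were higher in the KPC-shZEB1-labelled library by more than 1 on the log2 scale, Klra4 and Eomes were lower by more than 1, and Klrb1c and Klra8 stood within counting error of 0. Thus 3 of the 8 members passed a log2 ratio of 1 upward, where 2.08% of the 19011 genes compared did, and 2 of 8 passed it downward, where 8.20% did. Outside acinar-rich spots 4 of 8 passed it upward, against 3.81% of all genes, and 0 of 8 passed it downward, against 1.71%. The median log2 ratio of the 8 members was 0.55 over all spots and 1.15 outside acinar-rich spots.

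Klre1 gave 638 UMIs (4.54 CPM, interval 4.20 to 4.91) in the KPC-shZEB1-labelled library and 281 UMIs (1.63 CPM, 1.45 to 1.84) in the other library. Its log2 ratio was 1.48 (1.27 to 1.68), a 2.78-fold difference, and outside acinar-rich spots its levels of 7.09 and 1.66 CPM differed 4.27-fold (log2 ratio 2.09, 1.89 to 2.31). Ncr1 is widely used as a marker of NK cells and group 1 innate lymphoid cells across strains. Its 216 and 141 UMIs corresponded to 1.54 CPM (1.34 to 1.76) and 0.819 CPM (0.690 to 0.966), which gave a log2 ratio of 0.91 (0.59 to 1.22). Outside acinar-rich spots Ncr1 stood at 2.29 and 0.797 CPM (log2 ratio 1.52, 1.20 to 1.85). Both genes were thus higher in the KPC-shZEB1-labelled library in either scope, beyond counting error.

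Klrb1c, the NK1.1 antigen of C57BL/6 mice, gave 244 and 260 UMIs (1.74 and 1.51 CPM). At this depth the log2 ratio of 0.20 (-0.06 to 0.46) over all spots was no detectable difference, and it was 0.78 (0.51 to 1.04) outside acinar-rich spots. Klra8, an activating Ly49 receptor, gave 216 and 246 UMIs (1.54 and 1.43 CPM), with a log2 ratio of 0.10 (-0.17 to 0.37). Outside acinar-rich spots it stood at 2.13 and 1.44 CPM (0.57, 0.28 to 0.85). The direction of Klra8 depended on how spots were weighted, since weighting every spot equally, by averaging CPM over spots, gave a log2 ratio of -0.32.

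Klra4, also an activating Ly49 receptor, went the other way. It gave 113 UMIs (0.804 CPM, 0.663 to 0.967) in the KPC-shZEB1-labelled library and 352 UMIs (2.05 CPM, 1.84 to 2.27) under the label KPC-shV, 2.54-fold higher (log2 ratio -1.35, -1.67 to -1.04). Outside acinar-rich spots the levels were 1.19 and 2.11 CPM and the difference was 1.77-fold (log2 ratio -0.82, -1.15 to -0.50). Klra4 was thus lower in the KPC-shZEB1-labelled library in both scopes, while the other 4 NK-restricted receptors had log2 ratios above 0 in both.

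Of the shared genes, Klrk1 gave 356 UMIs (2.53 CPM, 2.28 to 2.81) and 167 UMIs (0.971 CPM, 0.829 to 1.13). Its log2 ratio was 1.38 (1.12 to 1.66), and 1.99 (1.72 to 2.27) outside acinar-rich spots. Klrd1 gave 105 UMIs (0.747 CPM) and 43 UMIs (0.250 CPM), with log2 ratios of 1.58 (1.06 to 2.13) and of 2.17 (1.64 to 2.72) outside acinar-rich spots. Eomes moved against both. It gave 208 UMIs (1.48 CPM, 1.29 to 1.70) and 566 UMIs (3.29 CPM, 3.02 to 3.57), 2.22-fold higher in the KPC-shV-labelled library (log2 ratio -1.15, -1.39 to -0.92). Outside acinar-rich spots Eomes stood at 2.24 and 3.37 CPM, a 1.51-fold difference (log2 ratio -0.59, -0.84 to -0.35). Klra4 and Eomes were the 2 members that were lower in the KPC-shZEB1-labelled library in both scopes.

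**Figure D1:**
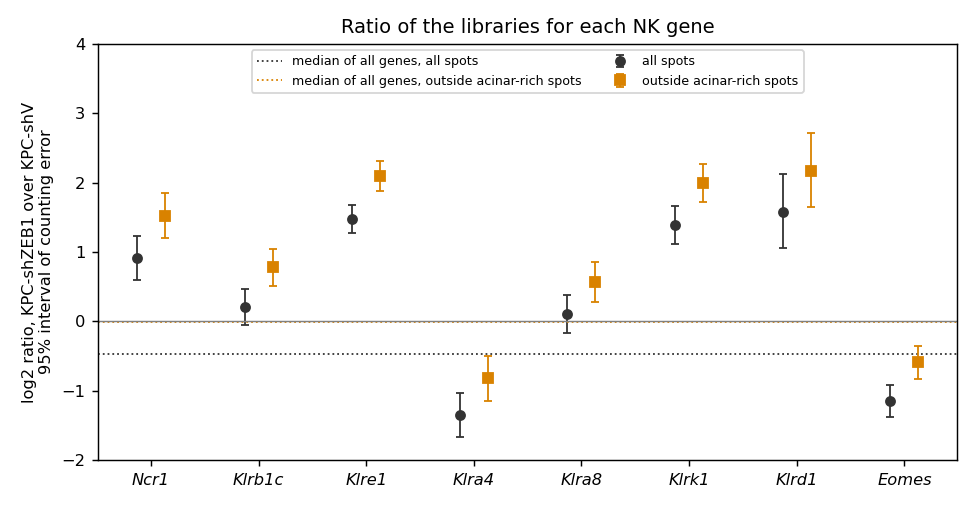
Log2 ratio of the level in the KPC-shZEB1-labelled library over that in the KPC-shV-labelled library for each of the 8 genes, over all spots and outside acinar-rich spots, with 95% intervals for counting error and dotted lines at the median of all genes in each scope. Klra4 and Eomes lie below 0 in both scopes, at -1.35 and -1.15 over all spots, and Klre1, Klrk1 and Klrd1 lie above 1 in both.

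Summed over the 8 genes the levels were 14.9 and 11.9 CPM, with a log2 ratio of 0.32 (0.23 to 0.41), and 22.7 and 12.1 CPM outside acinar-rich spots (0.90, 0.81 to 0.99). The 5 NK-restricted receptors summed to 10.2 and 7.44 CPM (0.45, 0.34 to 0.56) and the 3 shared genes to 4.76 and 4.51 CPM (0.08, -0.07 to 0.23). Outside acinar-rich spots these ratios were 1.03 (0.91 to 1.14) and 0.67 (0.51 to 0.82). The sum of the shared genes over all spots was not a detectable difference, although each of its 3 genes differed by more than 1 on the log2 scale. Klre1 alone held 638 of the receptor UMIs in the KPC-shZEB1-labelled library and 281 in the other. Sums without Klre1 were not computed, so whether they would differ between the libraries was not tested.

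These levels are low, and they were read against 12 genes that neither pancreas nor tumor is known to express, such as lens and retina genes. Over all spots those 12 genes lay between 0.427 and 1.28 CPM in the KPC-shZEB1-labelled library and between 0.541 and 1.02 CPM in the KPC-shV-labelled library. Outside acinar-rich spots their ranges were 0.562 to 1.41 CPM and 0.538 to 1.03 CPM. Under the label KPC-shV, Ncr1 and Klrk1 fell inside that range in both scopes and Klrd1 below it, so their ratios rest on a level in KPC-shV that these background genes also reach. In the KPC-shZEB1-labelled library Klra4 and Klrd1 fell inside the range in both scopes. Klre1, Klrb1c, Klra8 and Eomes stood above the range in both libraries, and Klra4 did so in the KPC-shV-labelled library. None of the 12 genes had a log2 ratio past 1 in either direction.

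**Figure D2:**
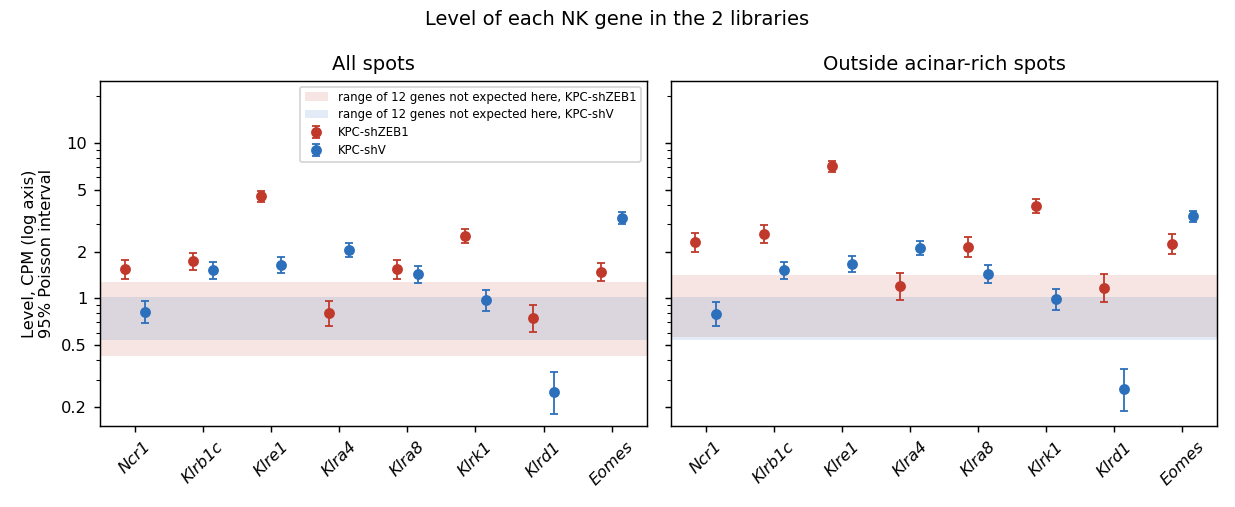
Level of each of the 8 genes in CPM on a log axis, for both libraries, over all spots and outside acinar-rich spots, with exact Poisson 95% intervals, and with the range of 12 genes not expected in this tissue shaded. Klre1 reaches 4.54 CPM over all spots in the KPC-shZEB1-labelled library and Eomes 3.29 CPM in the KPC-shV-labelled library, whereas Klrd1 at 0.250 CPM lies below the shaded range in the KPC-shV-labelled library.

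The Cd3 genes of T cells, summed, had a higher log2 ratio than each of the 8 members, for Klrd1 within counting error. Cd3d, Cd3e and Cd3g, which encode chains of the T cell receptor complex, summed to 49.7 and 13.3 CPM (log2 ratio 1.90), and to 79.3 and 13.7 CPM outside acinar-rich spots (2.54, 2.47 to 2.61). Ptprc, the pan-leukocyte gene CD45, stood at 168 and 131 CPM (0.36). The members were therefore also counted per 1000 UMIs of these genes. Per 1000 Cd3 UMIs all 8 members were lower in the KPC-shZEB1-labelled library, 7 of them beyond counting error. Klre1 went from 123 in the KPC-shV-labelled library to 91.4 in the KPC-shZEB1-labelled library, Eomes from 247 to 29.8 and Klra4 from 154 to 16.2. The exception was Klrd1, at 18.8 and 15.05, whose interval included no difference. Per 1000 Ptprc UMIs the members split evenly. Ncr1 (9.17 and 6.27), Klre1 (27.1 and 12.5), Klrk1 (15.1 and 7.43) and Klrd1 (4.46 and 1.91) were higher in the KPC-shZEB1-labelled library, all 4 beyond counting error. Klra4 (4.80 and 15.7) and Eomes (8.83 and 25.2) were lower there beyond counting error, and Klrb1c and Klra8 were lower within it. The direction of Ncr1, Klre1 and Klrk1 therefore turned when T cell RNA replaced all RNA or leukocyte RNA as the base, and that of Klra4 and Eomes did not.

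The UMIs of each member were spread thinly over the sections. Without thinning, Klre1 was found in 478 and 259 spots, Klrk1 in 284 and 150, Ncr1 in 190 and 138, Klrd1 in 94 and 42, Klra4 in 97 and 276 and Eomes in 191 and 486. The most UMIs of any member in 1 spot was 6, for Klre1. To compare shares of spots, spots were randomly thinned to 20000 UMIs apiece, leaving out 70 and 729 shallower spots. Outside acinar-rich spots this left 1407 and 2671 spots, with median depths before thinning of 59246 and 61564 UMIs. Klre1 was then detected in 12.4% and 3.37% of the spots, Klrk1 in 8.24% and 2.40%, Ncr1 in 3.84% and 1.54%, and Klrd1 in 1.99% and 0.674%. Klra4 was detected in 2.56% and 4.01% and Eomes in 4.62% and 5.95%. The order of the libraries for each of these genes was that of their levels.

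At least 1 of the 5 NK-restricted receptors was detected in 25.4% and 13.3% of those spots, and at least 1 of the 12 genes not expected here in 21.4% and 17.1%. Over all spots at this depth the share with a receptor was 5.07 percentage points higher (2.99 to 7.16) in the KPC-shZEB1-labelled library. In acinar-rich spots, where NK cells are not expected in number, a receptor was detected in 4.85% of 743 spots labelled KPC-shZEB1 (median depth 67016 UMIs) and in 11.2% of 152 spots labelled KPC-shV (median depth 33334 UMIs). The genes not expected here, Umod among them, were detected in 8.88% and 22.4% of these spots. These are shares for 5 and for 12 genes, so their sizes were not set against each other. By level, the members were 3.45-fold (Klra8) to 12.9-fold (Klrd1, 5.34 to 40.6) higher outside acinar-rich spots than inside in the KPC-shZEB1-labelled library, where the background genes were 2.48-fold higher. Umod, 1 of those background genes, stood at 1.80 CPM inside, which lowered their fold. The fold without Umod was not computed, so whether each member exceeded it was not tested. Levels inside are also shares of a total that holds much acinar RNA. Under the label KPC-shV, where few acinar-rich spots were read, the intervals of Klra4 (4.57-fold, 1.55 to 22.3) and Eomes (2.74-fold, 1.38 to 6.38) lay above 1. Those of Klrb1c (1.24-fold), Klre1 (1.80-fold), Klra8 (1.17-fold) and Klrk1 (2.15-fold) included 1, as did that of Ncr1, which was read at 0.797 CPM outside and 1.38 CPM inside. Klrd1 had no UMI in the acinar-rich spots of that library.

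Within each library, spots outside acinar-rich tissue were ranked by the summed level of 12 T cell genes and split into 3 equal groups, called terciles. Klrk1 and Klrd1 followed the T cell genes most steeply. In the KPC-shZEB1-labelled library Klrk1 stood at 8.19 CPM in the highest tercile and 0.986 CPM in the lowest, an 8.31-fold difference (5.59 to 12.8). Under the label KPC-shV it stood at 2.38 and 0.203 CPM, an 11.7-fold difference (5.96 to 26.2). The corresponding folds of Klrd1 were 9.12 (4.16 to 23.7) and 8.71 (2.70 to 44.7). These folds were measured on Klrk1 and Klrd1 levels that in the KPC-shV-labelled library did not exceed the background genes over the section as a whole, and the background genes summed had folds of 1.06 and 1.08.

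The NK-restricted receptors followed the T cell genes less steeply or not at all. Ncr1 was 3.77-fold (2.51 to 5.82) and 2.23-fold (1.32 to 3.899) higher in the highest tercile, Klre1 3.34-fold (2.63 to 4.27) and 2.34-fold (1.68 to 3.31), and Klrb1c 3.04-fold (2.13 to 4.42) and 2.56-fold (1.80 to 3.70). These 3 receptors were higher in T cell-rich spots of both libraries beyond counting error. Klra8 was 1.48-fold higher (1.03 to 2.15) in the KPC-shZEB1-labelled library and had a fold of 0.834 in the KPC-shV-labelled library, with an interval that included 1. Klra4 turned between the libraries, with 1.60 CPM in the highest and 0.880 CPM in the lowest tercile labelled KPC-shZEB1 (1.82-fold, 1.08 to 3.11) but 1.57 and 2.51 CPM in those labelled KPC-shV (a fold of 0.625, 0.461 to 0.843). Eomes did not differ beyond counting error between the highest and lowest tercile of either library, with folds of 0.808 (0.567 to 1.15) and 1.09 (0.873 to 1.37).

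**Figure D3:**
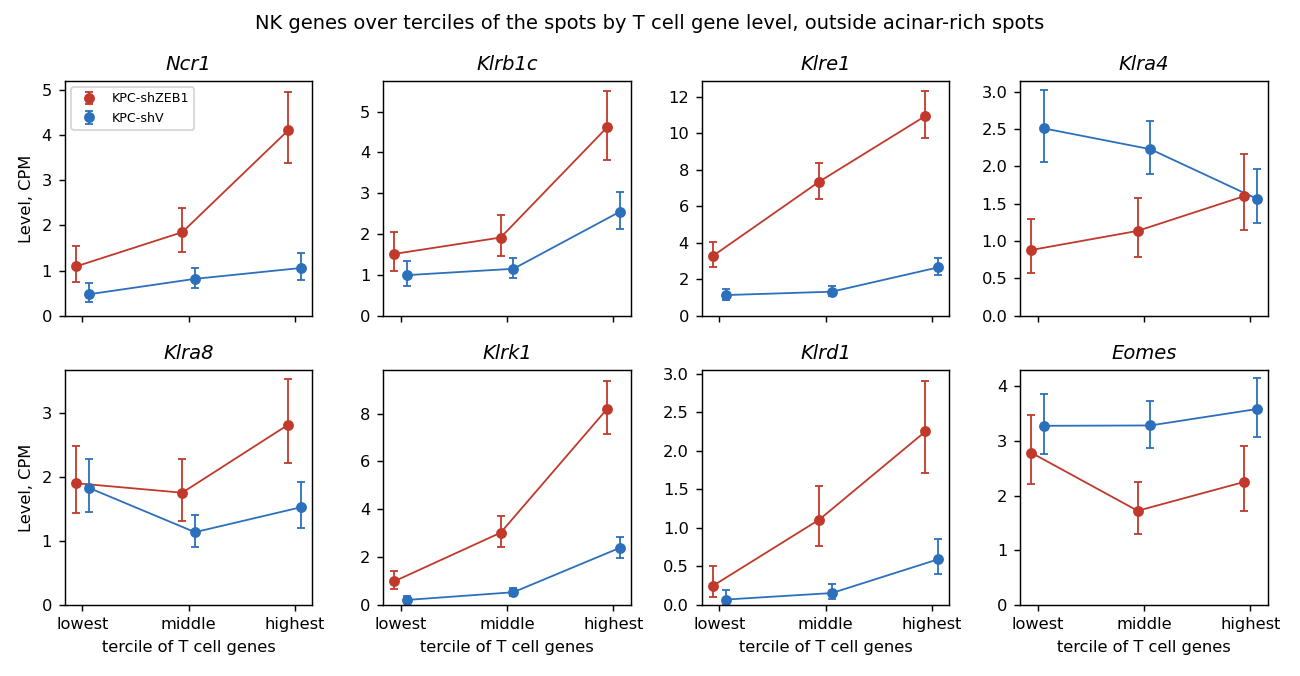
Level of each of the 8 genes in CPM across terciles of the spots ranked by T cell genes, outside acinar-rich spots, for both libraries, with exact Poisson 95% intervals and 1 panel per gene. Klrk1 climbs from 0.986 to 8.19 CPM in the KPC-shZEB1-labelled library, Eomes has no slope shared by both libraries, and Klra4 slopes upward in the KPC-shZEB1-labelled library and downward in the KPC-shV-labelled library.

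Splits by other tissue markers were described in the same way. By macrophage genes, Klrk1 stood at 8.33 CPM in the highest and 1.08 CPM in the lowest tercile in the KPC-shZEB1-labelled library, and at 2.87 and 0.106 CPM in the KPC-shV-labelled library. Klrb1c was 3.83-fold (2.65 to 5.65) and 4.08-fold (2.87 to 5.93) higher in the macrophage-rich tercile and Ncr1 3.91-fold and 2.22-fold. By tumor epithelium genes the order turned. Klrk1 was 3.97-fold (2.96 to 5.37) and 10.5-fold (6.19 to 19.0) lower in the tercile richest in tumor epithelium, Klrb1c 3.22-fold and 2.44-fold lower, and Ncr1 2.62-fold and 2.54-fold lower. Eomes did not share this, at 1.90 and 2.34 CPM in the highest and lowest tumor tercile of the KPC-shZEB1-labelled library and 3.71 and 2.73 CPM in those of the KPC-shV-labelled library (a fold of 1.36, 1.07 to 1.73). In the KPC-shV-labelled library, spots of the highest macrophage tercile were shallower than those of the lowest (medians 38120.5 and 55151 UMIs). Spots of the lowest tumor tercile were shallower than those of the highest (31904 and 58660 UMIs). Ncr1 and Klrk1 lay within the range of the background genes in that library. The part of depth and background in these folds was not tested.

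In the KPC-shV-labelled library, Klrk1 was 6.94-fold (4.29 to 11.9) and Klra4 2.33-fold (1.84 to 2.97) lower in spots over the median of hypoxia genes than in the others, whereas Eomes was read at 3.37 CPM in both. Klra4 was also 2.68-fold lower (2.07 to 3.50) in the spots of that library over the median of neutrophil genes. Klrk1 was lower there too (0.679 against 1.22 CPM), as were Klre1 (1.36 against 1.89 CPM), Ncr1 (0.636 against 0.917 CPM) and Klrd1 (0.198 against 0.306 CPM). Klra8 (1.68 against 1.25 CPM) and Eomes (3.41 against 3.34 CPM) were not. Among spots labelled KPC-shZEB1 neither split moved Klra4 beyond counting error. Klrk1 was lower over their hypoxia median (2.30 against 5.73 CPM). Over their neutrophil median Klrk1 (5.12 against 2.70 CPM), Ncr1 (3.03 against 1.53 CPM), Klre1 (8.38 against 5.76 CPM) and Klrd1 (1.63 against 0.693 CPM) were higher. Eomes was lower there (1.56 against 2.94 CPM). The 5% of spots richest in B cell genes held more Klrb1c (3.83-fold, 2.23 to 6.21, and 2.37-fold, 1.07 to 4.57) and more Klra8 (4.71 against 2.07 CPM and 5.50 against 1.37 CPM). In the KPC-shV-labelled library the background genes were 2.51-fold higher (1.89 to 3.26) in those same spots, whose part in the Klrb1c and Klra8 values was not tested.

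Co-detection with T cell genes was then counted within spots. After thinning, outside acinar-rich spots, at least 1 UMI of Cd3d, Cd3e or Cd3g was found in 74.5% (69.7% to 79.0%) of the 357 spots with an NK-restricted receptor and 60.6% (57.5% to 63.5%) of the spots without one in the KPC-shZEB1-labelled library, a difference of 13.9 percentage points (8.25 to 19.3). Under the label KPC-shV the shares were 27.0% (22.4% to 31.9%) of 356 spots and 19.4% (17.8% to 21.1%), a difference of 7.53 percentage points (2.69 to 12.7). For the genes not expected here the corresponding shares were 66.1% and 63.6%, and 22.98% and 19.9%. The shares in spots with a receptor were above those in spots with a background gene in both libraries, with intervals that overlapped.

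Among the members, Klrk1 and Klrd1 had the highest Cd3 shares. Among spots labelled KPC-shZEB1, 85.3% (77.6% to 91.2%) of the spots with Klrk1 held a Cd3 UMI against 62.2% of those without, and in the KPC-shV-labelled library 32 of 64 (37.2% to 62.8%) did against 19.7%. The shares in spots with Klrd1 were 85.7% (67.3% to 96.0%) and 55.6% (30.8% to 78.5%). Klre1 followed with 81.0% (74.4% to 86.6%) against 61.7%, and 35.6% (25.7% to 46.3%) against 19.9%. Klrb1c and Ncr1 were above the spots without them in the KPC-shV-labelled library, at 38.0% (27.3% to 49.6%) against 19.9% and at 36.6% (22.1% to 53.1%) against 20.2%. In the KPC-shZEB1-labelled library their shares of 70.3% and 74.1%, against 63.8% and 63.7%, had intervals that included the shares of the other spots. Klra8 and Klra4 showed no excess beyond counting error in the KPC-shZEB1-labelled library, at 66.7% and 69.4% against 64.0% each. Under the label KPC-shV, 11.2% (5.93% to 18.8%) of the spots with Klra4 held a Cd3 UMI, against 20.8% of those without. Eomes was with Cd3 in 53.8% (41.0% to 66.3%) of its spots against 64.6%, and in 18.9% against 20.5%, so it was the member whose share lay below that of the other spots in both libraries, within counting error in each.

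**Figure D4:**
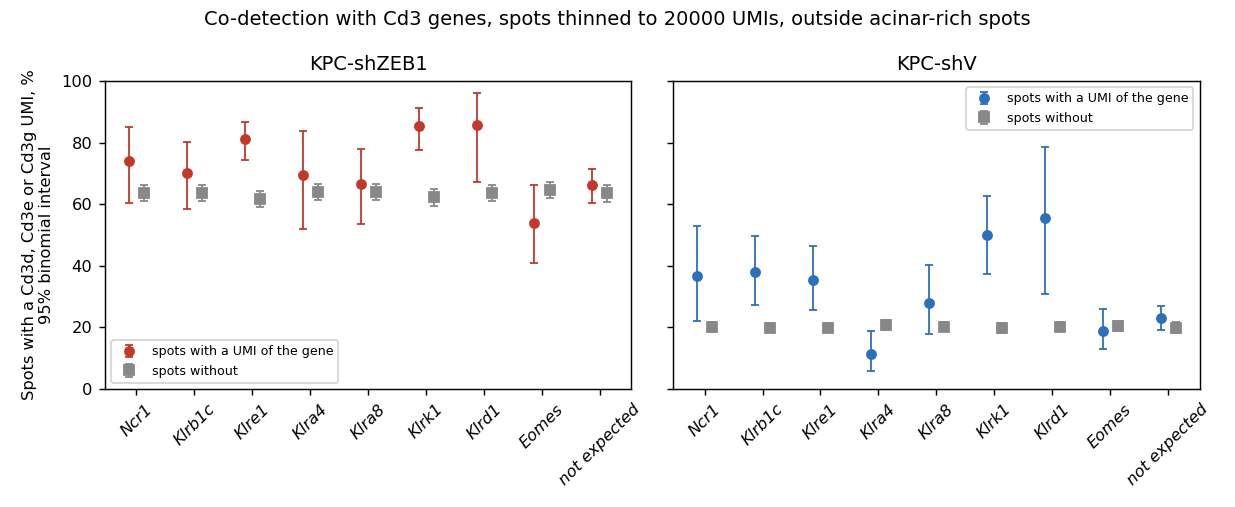
Share of spots, in percent, with a UMI of Cd3d, Cd3e or Cd3g among spots with and without each of the 8 genes and among spots with and without any of the 12 genes not expected here, in each library, after thinning to 20000 UMIs and outside acinar-rich spots, with exact 95% intervals. Spots with Klrk1 reach 85.3% in the KPC-shZEB1-labelled library, whereas spots with Klra4 in the KPC-shV-labelled library reach 11.2%, below the 20.8% of the spots without it.

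Cd8a, the gene of a CD8 chain, gave fewer spots. Ncr1 and Eomes parted here in the KPC-shZEB1-labelled library. Of the spots with Ncr1, 33.3% (21.1% to 47.5%) held Cd8a against 12.9% of the others, and of the spots with Eomes 4.62% (0.962% to 12.9%) did against 14.1%. The Ncr1 share rests on 18 of 54 spots. Without thinning it was 41.9% (34.4% to 49.6%) against 31.5%. In the KPC-shV-labelled library 2 of 41 spots with Ncr1 held Cd8a after thinning. Without thinning the shares there were 6.20% (2.72% to 11.9%) and 7.57%, with no excess. Over the 5 receptors together the Cd8a shares were 17.9% and 12.2% in the KPC-shZEB1-labelled library and 3.65% and 3.02% in the KPC-shV-labelled library, the second pair being a difference of 0.63 percentage points that was not detectable at this depth.

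Seen from the other side, spots with a Cd3 UMI held a receptor in 29.5% of 902 spots and spots without one in 18.0% of 505 in the KPC-shZEB1-labelled library. Among spots labelled KPC-shV the shares were 17.6% of 546 and 12.2% of 2125. Within the spots that held Cd3, Klre1 was detected in 15.6% and 5.86% and Klrk1 in 11.0% and 5.86%, so both were higher in the KPC-shZEB1-labelled library by this split. The split asks for at least 1 Cd3 UMI and does not equalize the amount of Cd3 RNA. Per 1000 Cd3 UMIs outside acinar-rich spots, Klre1 (89.5 and 122) and Klrk1 (49.6 and 72.5) were lower in the KPC-shZEB1-labelled library. Within the spots without Cd3, Klra4 was detected in 2.18% (1.09% to 3.86%) and 4.47% (3.63% to 5.44%), and within those with Cd3 in 2.77% (1.80% to 4.06%) and 2.20% (1.14% to 3.81%), with intervals that overlapped in both. Intervals of these differences were not computed, so the overlap is not read as no difference.

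The members also met each other in spots. After thinning, 2 or more of the 8 genes were detected in 7.82% (6.47% to 9.35%) of the spots labelled KPC-shZEB1 and 2.62% (2.05% to 3.30%) of those labelled KPC-shV, and the most different members in 1 spot were 5 and 4. Of the 28 pairs, the one met most often in the KPC-shZEB1-labelled library was Klre1 with Klrk1, in 26 spots. Klrk1 was read in 14.9% (10.0% to 21.1%) of the spots with Klre1 and 7.30% of those without. Klrk1 was likewise read in 24.1% (13.5% to 37.6%) of the spots with Ncr1 against 7.61%, and in 17.6% (9.70% to 28.2%) of the spots with Klrb1c against 7.73%. With Klrd1, these were the 4 pairs in which the lower bound passed the share in the other spots, and Klrk1 was in each of them. In the KPC-shV-labelled library 2 pairs did so. These were Klre1 with Klrk1 (6 spots, 6.67% against 2.25%) and Klra8 with Eomes (9 spots, 13.2%, 6.23% to 23.6%, against 5.76%). The median pair was met in 3.5 and 3 spots, and the intervals were not adjusted for the 28 pairs, so single pairs are thinly counted.

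Klra4 in the KPC-shV-labelled library was read in a tissue context of its own. Among 12459 genes ranked by how much higher they were in spots with a member than in the others, Muc5ac led for Klra4 in that library. Muc5ac, the gene of a secreted mucin of gastric-type epithelium, was higher by 3.37 on the log2 scale in spots with Klra4 (0.79 in the KPC-shZEB1-labelled library) and Gkn2, a gastrokine gene, by 3.21. Muc5ac and Gkn2 were chosen after their values were seen, so what follows is a description of the same spots. In the 5% of spots with the highest Muc5ac level outside acinar-rich tissue, Klra4 stood at 9.64 CPM against 1.60 CPM in the others in the KPC-shV-labelled library, a 6.03-fold difference (4.74 to 7.63). Under the label KPC-shZEB1 the fold was 0.958 (0.304 to 2.31).

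These 165 spots labelled KPC-shV held 6.33% of the UMIs outside acinar-rich tissue and 101 of the 349 Klra4 UMIs (28.9%). Among spots labelled KPC-shZEB1 the 73 such spots held 5 of 102 Klra4 UMIs (4.90%) and 5.11% of all UMIs. Of the 107 spots with Klra4 after thinning in the KPC-shV-labelled library, 21 held Muc5ac (19.6%, 12.6% to 28.4%), against 3.20% of the spots without Klra4. For the other members whose fold could be given, its interval included 1 in both libraries, and Klrd1 had no UMI in these spots labelled KPC-shV. With the Muc5ac-rich spots left out, the log2 ratio of Klra4 over all spots was -0.97 instead of -1.35. Outside acinar-rich spots, Klra4 without them stood at 1.20 CPM (0.970 to 1.46) in the KPC-shZEB1-labelled library. It stood at 1.60 CPM (1.41 to 1.81) in the KPC-shV-labelled library. The direction thus held without them in both scopes, but in the second scope the intervals of the levels overlapped. The interval of the ratio was not computed there, so whether the difference passed counting error was not tested.

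**Figure D5:**
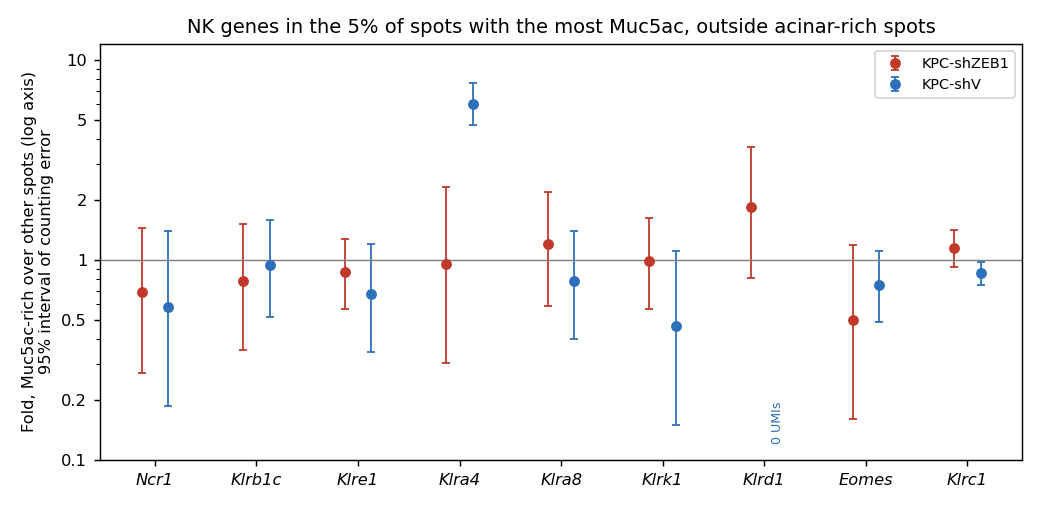
Fold of the level in the 5% of spots with the highest Muc5ac level over the level in the other spots, outside acinar-rich tissue, for the 8 genes and Klrc1 in each library, on a log axis with exact 95% intervals. Klra4 reaches 6.03-fold in the KPC-shV-labelled library and 0.958-fold in the KPC-shZEB1-labelled library, and Klrd1 is not drawn for the KPC-shV-labelled library, where it had no UMI in these spots.

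The genes most like the 5 receptors summed, by the lower of their log2 differences between spots with and without a receptor in the libraries, were of 2 kinds. Endocrine genes led, with Ppy (3.02 in the KPC-shZEB1-labelled library and 1.82 in the KPC-shV-labelled library), Gcg (2.60 and 1.53), Chga (2.37 and 1.19), Chgb (1.11 and 1.63), Pcsk1n (1.52 and 1.04), Resp18 (1.93 and 1.01) and Iapp (3.26 and 0.83). These rest on few spots, since a single spot held 28.3% and 12.8% of the Ppy UMIs and 44.9% and 22.6% of the Iapp UMIs. The lymphocyte genes were Igkv19-93 (1.11 and 2.46), an immunoglobulin light chain gene, Ccr7 (1.18 and 1.06), a homing receptor, and Prkcq (0.83 and 0.89), a kinase of T cell signaling. A single spot held 12.6% and 23.4% of the Igkv19-93 UMIs, whereas for Ccr7 and Prkcq no spot held more than 2.97%. The likeness was measured over 357 and 356 spots with a receptor, and it is a description of where UMIs were read. Taken singly, Klrk1 was most like Ighg2b (1.97 and 2.32) and Ccl5 (1.90 and 2.00), and Ccl5, a chemokine gene of cytotoxic lymphocytes, also led for Ncr1 (1.57 and 1.78) and Klre1 (1.41 and 1.28). Ccl5 itself followed macrophage genes as well as T cell genes. By macrophage genes it stood at 816 and 68.3 CPM in the highest and lowest tercile labelled KPC-shZEB1, and by T cell genes at 784 and 67.1 CPM. Under the label KPC-shV these values were 176 and 20.5 CPM, and 167 and 23.9 CPM. The gene most like Eomes was Traj31, with only 0.93 and 0.90.

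Other genes of the NK gene complex were counted in the same way. Of 20 listed, 15 were in the feature list used, and over all spots 1 passed a log2 ratio of 1 upward and 2 downward, where 2.08% and 8.20% of all genes did, with a median of 0.11. Klra1 (0.477 and 0.209 CPM, log2 ratio 1.19) and Klri1, a partner chain of Klre1 (2.19 and 1.19 CPM, 0.88), were highest. Klra17, which encodes Ly49Q of plasmacytoid dendritic and myeloid cells (1.12 and 2.37 CPM, -1.09), and Klrc1, which encodes NKG2A, the partner of CD94 (11.9 and 25.1 CPM, -1.08), were lowest. Klra1, whose coding sequence is closest to that of Klra4, was read near the lower end of the range of the genes not expected here in the KPC-shZEB1-labelled library and below that range in the other, so its ratio is not one of levels above background. Outside acinar-rich spots 5 of the 15 passed a log2 ratio of 1 upward and 0 downward, against 3.81% and 1.71% of all genes, with a median of 0.61.

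Klrc1 did not run with Klrd1. Outside acinar-rich spots Klrc1 stood at 29.3 CPM in the tercile of spots richest in tumor epithelium and 10.3 CPM in the poorest in the KPC-shZEB1-labelled library (2.86-fold, 2.48 to 3.30), and at 33.6 and 12.1 CPM in the KPC-shV-labelled library (2.77-fold, 2.50 to 3.07). Klrd1, its partner, was 2.23-fold (1.34 to 3.79) and 7.95-fold (2.68 to 31.9) lower in the richest tercile. The second fold rests on 4 and 21 Klrd1 UMIs in the richest and poorest tercile. In that library Klrd1 lay below the range of the background genes. Klrc1 was thus read most where tumor epithelium genes were high, in both sections.

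The lists of genes that work with these receptors are given by their counts over all spots, to be read against the 2.08% of all genes that passed 1 upward and the 8.20% that passed it downward. Of the 4 adaptor genes, Cd247 (log2 ratio 1.94), the zeta chain that also serves the T cell receptor, passed 1 upward. Hcst, the adaptor of NKG2D, stood at 0.59 (1.17 outside acinar-rich spots), and Fcer1g and Tyrobp, which myeloid cells also use, at 0.02 and -0.04. Of 8 transcription factors of NK cells and innate lymphoid cells, 0 passed 1 in either direction over all spots. Tox (0.54) and Zfp683 (0.24) were highest and Id2 (-0.88) and Nfil3 (-0.74) lowest, and each of the 8 was above Eomes. Of 12 surface and cytokine receptors, 5 passed 1 upward, among them Cd96 (1.89) and Slamf7 (1.52), and 1 downward, Itga2 (-1.35), the integrin chain CD49b that epithelium also carries. Il18rap stood at -0.81.

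Of 9 cytotoxic effector genes, 2 passed 1 upward, Xcl1 (14.3 and 4.14 CPM, 1.79) and Ccl5 (204 and 68.9 CPM, 1.57), and 0 downward. The granzyme genes Gzma (0.01) and Gzmb (-0.02) were within counting error of 0 over all spots, and the median of the list was 0.79. Outside acinar-rich spots Gzma stood at 10.5 CPM (9.83 to 11.2) and 7.19 CPM (6.79 to 7.61), higher in the KPC-shZEB1-labelled library beyond counting error. Of 12 ligand genes of NK receptors, 0 passed 1 upward and 2 downward over all spots, with a median of -0.53, near the median of all genes. These were Ulbp1 (11.2 and 23.8 CPM, -1.09), a ligand of NKG2D, and Pvr (12.2 and 26.1 CPM, -1.10), a ligand of Cd226 and Cd96. Cd48 (0.54) and Clec2d (0.45) were highest. Outside acinar-rich spots Ulbp1 stood at 17.8 and 24.6 CPM and Pvr at 18.6 and 26.9 CPM, lower in the KPC-shZEB1-labelled library but not past a log2 ratio of 1. Of 7 genes of cytokines that act on NK cells and of their presentation, 0 passed 1 in either direction over all spots. They ran from Il21 (-0.67) and Il2 (-0.31) to Il15ra (0.55), a receptor chain that presents IL-15, and Il12b (0.82).

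Markers of other cells moved with the labels as well. Of 12 T cell genes, 8 passed a log2 ratio of 1 upward over all spots and 12 outside acinar-rich spots, with medians of 1.58 and 2.22. The medians over all spots were 1.31 for B cell genes, 0.07 for macrophage genes, -1.74 for neutrophil genes, -0.70 for tumor epithelium genes and -1.82 for hypoxia genes. The median of all genes there was -0.48, so the value for tumor epithelium genes lay near it. By the sign of these library ratios alone, Klre1, Klrk1 and Klrd1 lay with the lymphocyte lists and Klra4 and Eomes with the neutrophil, tumor and hypoxia lists. Spots within the KPC-shV-labelled library did not repeat this for Klra4. It stood at 1.07 CPM over and 2.88 CPM up to the median of neutrophil genes, and at 1.37 and 2.40 CPM in the highest and lowest tumor tercile. Eomes there was 3.41 and 3.34 CPM by neutrophil genes and higher only in the tumor-rich tercile (3.71 and 2.73 CPM). In the KPC-shZEB1-labelled library Eomes was lower over the median of neutrophil genes, at 1.56 CPM (1.21 to 1.98) against 2.94 CPM (2.44 to 3.51). The part of these cell populations in the values of the NK genes was not tested.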

How the data were processed

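Probe-based Visium CytAssist libraries were made from OCT-frozen, methanol-fixed tumor sections with the kit for FFPE tissue. Per the submitters' processing notes, the authors used Space Ranger 2.0.1 with mm10, and the deposited values are unnormalized UMI counts for every gene in every spot over tissue. Groups came from the labels, with 1 library each. The 8 genes, the gene lists and the alternatives were chosen with earlier results of these data known. All 8 members are named. Of each gene list at most 4 genes are named, those with the highest and lowest log2 ratios among genes reaching 100 UMIs over the libraries together, and for likeness to the receptors summed the 10 genes ranked highest. The genes ranked highest for single members, Muc5ac, Gkn2 and the split by Muc5ac were chosen after their values were seen.

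From the deposited counts, CPM over the summed spots, log2 ratios with exact conditional binomial intervals, exact Poisson intervals for levels and Clopper-Pearson intervals for shares were computed at the 95% level in Python 3.11.15 with numpy 2.4.6, scipy 1.17.1, pandas 2.3.3 and matplotlib 3.10.9. Intervals for differences of shares combined the Clopper-Pearson bounds of both shares. Intervals cover counting error only. No test and no p-value was computed. Acinar-rich spots had over 20% of UMIs from acinar genes (20 of 24 listed genes found). Shares of spots were taken after random thinning to 20000 UMIs. Likeness was the log2 ratio of the level in spots with a member over that in spots without, outside acinar-rich spots, over genes reaching 200 UMIs in each library, ranked by the lower of both libraries. Positions came from GENCODE M21 on GRCm38, found by Ensembl identifier for 19451 of 19465 features. Among the features, 11 symbols occurred more than once. The step that computes levels was tested on simulated data. Spots are regions, so doublets were not called and cell type shares were not estimated. The images were not used here.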

Additional observations from a re-analysis of the deposited data

How the results depend on the processing

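With 1 library per label no replicate could be left out, and the intervals cover counting error only. No paired analysis was possible because each group has 1 library. Of the log2 ratios of the 8 genes, 7 kept their sign under all 11 alternatives, and Klra8 kept it under 10. The ranges were 0.84 to 1.52 for Ncr1, 0.07 to 0.78 for Klrb1c, 1.38 to 2.09 for Klre1, -1.38 to -0.82 for Klra4, -0.32 to 0.59 for Klra8, 1.31 to 1.99 for Klrk1, 1.41 to 2.17 for Klrd1 and -1.20 to -0.58 for Eomes. Median-of-ratios scaling over 15358 genes shifts every ratio up by 0.48, and the spot filter left out only 1 and 2 spots. Counting per 1000 Cd3 UMIs, under which all 8 members were lower in the KPC-shZEB1-labelled library, was not among these alternatives. The log2 ratio of the 8 genes summed, 0.32, was 0.90 with acinar-rich spots left out, 0.88 with spots over 5% or over 40% acinar UMIs left out, 0.69 with acinar genes out of the total and 0.80 with median-of-ratios scaling. Under the same 5 settings, that of the 5 NK-restricted receptors, 0.45, was 1.03, 1.01, 1.003, 0.82 and 0.93, and that of the 3 shared genes, 0.08, was 0.67, 0.65, 0.65, 0.45 and 0.56. When log2 ratios were averaged over genes after adding 1 UMI, the latter 2 were 0.27 and 0.60. The receptors without Klra4, an alternative chosen after seeing the data as was leaving out Muc5ac-rich spots, gave 0.79. Leaving out Klre1, the receptor with the most UMIs in the KPC-shZEB1-labelled library (638, against 281 in the other), was not computed. The difference in spots with a receptor, 5.07 percentage points, was 13.2 without thinning, 1.48 with thinning to 5000 UMIs, 12.04 with acinar-rich spots left out and 1.75 when at least 2 UMIs were asked for. The Cd3 difference between spots with and without a receptor, 13.9 percentage points in the library labelled KPC-shZEB1, was 31.3 with acinar-rich spots kept and 5.74 with Cd8a in place of the Cd3 genes, and in the library labelled KPC-shV 7.53 became 0.63 with Cd8a. The alternatives with and without acinar-rich spots differ by their share of the total, and the cause of the other shifts was not tested.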
